A study of Homo sapiens with 13 samples.

Results

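The 10 genes described here encode the cleavage stimulation factor CstF (CSTF1, CSTF2, its paralog CSTF2T and CSTF3), cleavage factor I (CFI: NUDT21, CPSF6 and CPSF7), cleavage factor II (CFII: PCF11 and CLP1) and the nuclear exonuclease XRN2. They were chosen by name from 14575 gene names in the 3’ READS tables, by a rule that uses no measured value, although earlier results of these data were known when they were chosen. 3’ READS sequences the junction between an mRNA and its poly(A) tail, so each read gives an mRNA 3’ end, and reads that end at the same nucleotide form 1 3’ mRNA isoform. The cells were HEK293 Flp-in T-REx, a human embryonic kidney line with a doxycycline-inducible integration site, and poly(A) RNA was measured in 5 wild-type and 4 R749H libraries. Both cell lines carried an Avi-tagged, α-amanitin-resistant Rpb1, the largest subunit of Pol II, which was either wild-type or the slow R749H form. In both, Rpb1 was induced with doxycycline at 2 µg/ml (24 hr), and α-amanitin at 2.5 µg/ml (42 hr) then inhibited the Pol II of the host cell. The study asked how the elongation rate of Pol II affects where mRNAs are polyadenylated. Each form of Rpb1 was carried by 1 stable line, so the mutation and other differences between the lines cannot be told apart. The study calls the libraries of a line biological replicates, but neither it nor the labels say that they came from separate inductions. The p-values therefore measure the spread between these libraries, which may be technical.

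An mRNA 3’ end is made by a large complex that recognizes a hexamer (AAUAAA or a variant) and elements on either side of it, cuts the nascent RNA and adds the poly(A) tail. CstF binds the G- and U-rich element downstream of the cut through CSTF2 or CSTF2T, with CSTF3 as the scaffold that joins CSTF1 to the RNA-binding subunit. CFI binds UGUA upstream of the cut through NUDT21, which pairs with CPSF6 or CPSF7, and CFI is known for its influence on the choice between tandem poly(A) sites of a 3’ UTR. PCF11 of CFII holds both the RNA and the C-terminal domain of Rpb1, CLP1 is an RNA kinase that binds PCF11, and XRN2 degrades the RNA that Pol II goes on making after the cut, which leads to termination.

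The wild-type libraries held 2479851 to 10135014 reads within 5 kb of a stop codon, and the R749H libraries 3863468 to 6475987. R749H replicate 3 stood apart: single reads supported 6.60% of its isoforms, and 30.05 to 36.2% of those of each other library. Several of the results below, but not all, are given with and without it. TMM factors, which place most genes at equal levels, were above 1 in every wild-type library and below 1 in every R749H library. With TMM the median change of all genes was -0.07 (log2 R749H / wild-type), and with the authors' scaling alone it was -0.38; 2265 of 9495 genes passed the test with TMM (1037 higher, 1228 lower) and 2942 without (460 higher, 2482 lower). Of the markers of HEK293 cells, VIM and INA had reads in all 9 libraries, PAX2 in 8 and EYA1 in 6. The neurofilament gene NEFL had no reads and NEFM had 2. These 6 markers summed to 120.46 to 190.01 normalised RPM (the reads of a gene per M reads of the library after TMM) in wild-type and 89.3 to 116.3 in R749H libraries, without overlap. VIM, PAX2 and EYA1 were each lower in R749H without overlap, while INA overlapped. Of all genes tested, 19.9% did not overlap between the lines, in either direction. PAX2 had 1.28 to 4.08 RPM in wild-type and at most 0.869 in R749H libraries. EYA1 had 0.640 to 1.79 in wild-type and at most 0.274 in R749H libraries, in which 3 reads make 0.522 RPM or more. The part of these differences in the results below was not tested. Of 11 markers of blood, liver, fibroblasts and keratinocytes, 7 had no read, and the 11 together summed to at most 1.597 RPM in any library. POLR2A, the gene of Rpb1 itself, was higher in R749H by 2.12 (log2; limma, adjusted p = 2.13e-05), but reads at its own 3’ UTR do not show which Rpb1 the tagged construct carried and are no check of the labels.

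The poly(A) sites of these genes are shown first, because the results turn on which of them was used. A site joins isoforms no more than 24 nt apart. The 13 sites shown each had at least 10% of their gene's reads and lay in an annotated 3’ UTR. Each sequence is the 30 nt of the sense strand (DNA letters, 5′ to 3′, hg19) that end at the most used nucleotide of the site, and the capitals mark the AATAAA or ATTAAA hexamer. Distances (+) are counted in nt from the stop codon. An end of CLP1 at +390 held 11.4% of the reads of that gene, with 1 read in the R749H libraries. It is not among the sites shown, and its sequence was not examined.
CSTF3 short form, +148, minus strand, chr11:33162978-33163007: ttgcaacaacATTAAAacagtttcaatggt
CSTF3 full-length form, +502, minus strand, chr11:33106131-33106160: gtcctttaaaaAATAAAaggattcagaaac
NUDT21 proximal site, +87, minus strand, chr16:56466537-56466566: acagtgtagAATAAAtgtggtagaaaagtt
NUDT21 distal site, +3575, minus strand, chr16:56463049-56463078: attgtcatttcAATAAAaaatatttgaaag
PCF11 proximal site, +311, plus strand, chr11:82896218-82896247: aattataAATAAAaaatatttttgctattc
PCF11 distal site, +897, plus strand, chr11:82896804-82896833: ttcatacatgtAATAAAtagaatgatgaag
CSTF1 proximal site, +321, plus strand, chr20:54979075-54979104: aggatagggcATTAAAgtgcttttgacatg
CSTF1 distal site, +2634, plus strand, chr20:54981388-54981417: tgatttctgaAATAAActttatatacaatg
CSTF2 site, +2555, plus strand, chrX:100095876-100095905: tttctgtgacttgaAATAAActttgaacac
CSTF2T proximal site, +442, minus strand, chr10:53457017-53457046: gtataacaaAATAAAagtttacccaaaagt
CSTF2T distal site, +2212, minus strand, chr10:53455247-53455276: atgcagaaAATAAAgatacaattaaggctg
CLP1 site, +428, plus strand, chr11:57429307-57429336: tcattttAATAAAtatttttgccatatcat
XRN2 site, +487, plus strand, chr20:21370434-21370463: aaaaaaAATAAAgttaaacttttaaaactc

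The hexamer began 15 to 23 nt before the end of these sequences. It was AATAAA at 11 sites and ATTAAA at 2, the short form of CSTF3 and the proximal site of CSTF1. Over 15950 sites of all genes, 58.8% held AATAAA in the same window, 16.7% held ATTAAA without it, 16.1% held another variant that differs from AATAAA by a single base, and 8.40% held none. No minimum share of the gene's reads was set for the sites of all genes, unlike for the 13 shown. The sets are therefore not matched, here and for the motifs below. TGTA, the DNA spelling of the CFI motif, occurred on the sense strand within 100 nt upstream of 10 of the 13 ends (overlaps allowed), against 53.4% of all sites. PCF11 +311 had 4 copies, and CSTF3 +502 and CSTF2T +442 had 2 each, while CSTF3 +148, CSTF1 +2634 and CLP1 +428 had none; 20.4% of all sites had at least 2. In the 40 nt downstream of the cut, G and T made up 42.5% (CSTF2T +442) to 70.0% (XRN2), with a median of 57.5% over all sites.

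Of the 10 genes, 8 had enough reads for the test, and 3 of these rose in R749H cells: NUDT21 (2.34-fold), CSTF2 (2.09-fold) and CSTF3 (2.03-fold). NUDT21 and CSTF2 encode the RNA-binding subunits of CFI and CstF, and CSTF3 the scaffold of CstF. None of the 8 passed as lower, and the negative change of PCF11 (-0.79) did not pass (limma, adjusted p = 0.125). For comparison, 23.9% of all 9495 genes tested passed (10.9% higher, 12.9% lower), and the median change of the 8 was 0.26, against -0.07 for all genes. Fewer cells and less RNA per cell cannot be told apart in such bulk samples, and all changes below are relative to the TMM centre, on the log2 scale with 0.5 reads added, from limma with Benjamini-Hochberg adjustment over all genes.

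**Figure D1:**
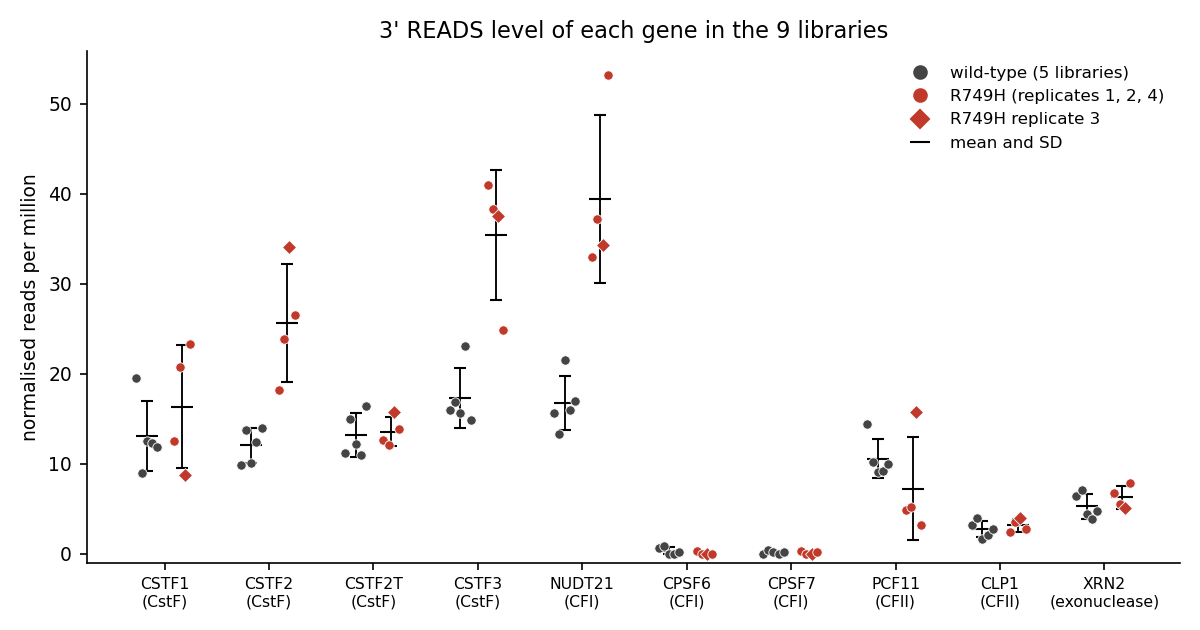
Normalised RPM (y axis) of each of the 10 genes (x axis) in the 5 wild-type (grey) and 4 R749H (red) libraries, with R749H replicate 3 as a diamond and bars for mean ± SD. The R749H points of CSTF2, CSTF3 and NUDT21 all lie above the wild-type points of the same gene, a lack of overlap seen in either direction for 19.9% of all genes tested. The ranges of the other genes overlap, and CPSF6 and CPSF7 are near 0.

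In wild-type cells the members fell into steps by level. Because a 3’ READS read marks a 3’ end whatever the length of the mRNA, levels can be set side by side without dividing by length, but only over 3’ ends within 5 kb of the stop codon. The study describes no removal of duplicate reads for these libraries. CSTF3 had the highest mean, 17.3 ± 3.33 normalised RPM (SD, n = 5), followed by NUDT21 (16.7 ± 3.001), CSTF2T (13.2 ± 2.45), CSTF1 (13.05 ± 3.89), CSTF2 (12.04 ± 1.95) and PCF11 (10.6 ± 2.18). Neighbours in this order overlapped between libraries. XRN2 (5.29 ± 1.39) lay below PCF11 without overlap, overlapped CLP1 (2.74 ± 0.917), and CLP1 lay above CPSF6 and CPSF7 without overlap. Against the genes tested, CSTF3 was above 56.3% in mean wild-type level and CLP1 above 9.93%. In R749H cells the means of NUDT21 (39.5 ± 9.35), CSTF3 (35.5 ± 7.20) and CSTF2 (25.7 ± 6.57; n = 4 each) stood above those of the other members.

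CSTF3, the CstF scaffold, held 16.0, 16.9, 15.7, 23.1 and 14.9 normalised RPM in wild-type replicates 1 to 5, and 41.0, 38.3, 37.5 and 24.9 in R749H replicates 1 to 4. The groups did not overlap, as was the case for 19.9% of all genes tested, although R749H replicate 4 lay close to wild-type replicate 4. The change was 1.02 ± 0.22 (SE; adjusted p = 0.00324), and it was 1.01 without R749H replicate 3 (adjusted p = 0.0066). These reads come from 2 kinds of mRNA. The full-length form (CCDS7883.1) ends at +502 of its own stop codon. The short form (CCDS44563.1) ends at a poly(A) site within intron 3 of the full-length gene, at +148 of a stop codon that lies upstream in the same intron. A further entry, CCDS44564.1, had 4 reads in all.

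Full-length CSTF3 rose. Counted by CCDS entry, an alternative chosen after the data had been seen, full-length CSTF3 had 11.8, 13.4, 12.2, 18.8 and 10.3 normalised RPM in the wild-type libraries and 36.7, 35.6, 35.9 and 23.3 in the R749H libraries. The 2 sets did not overlap, as for 19.9% of entries, and the change was 1.31 ± 0.23 (2.47-fold; limma, adjusted p = 0.000945), or 1.28 without R749H replicate 3 (adjusted p = 0.00205); 23.7% of entries passed. The short form had 4.16, 3.55, 3.42, 4.28 and 4.55 in wild-type cells and 4.17, 2.74, 1.597 and 1.15 in R749H cells. Here R749H replicate 1 lay among the wild-type values and the other 3 below them. The change of -0.86 ± 0.41 did not pass (limma, adjusted p = 0.141). Without R749H replicate 3 the change was -0.69 ± 0.40 (limma, adjusted p = 0.229).

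As a share of the reads of CSTF3, the short site at +148 took 20.0, 21.0, 19.8, 16.1 and 30.6% in the wild-type libraries (21.5 ± 5.40%) and 9.32, 6.43, 4.26 and 4.63% in the R749H libraries (6.16 ± 2.31%). The site at +502 took 75.3 ± 3.94% and 91.9 ± 2.07%. For neither site did the groups overlap, as was the case for 4.84% of the 7804 sites tested. The log2 odds of using a site against the rest of the gene changed by -2.05 ± 0.38 at +148 (adjusted p = 0.0977) and by 1.90 ± 0.34 at +502 (adjusted p = 0.0903), both short of the 0.05 threshold. Over 20 alternatives the adjusted p of the short site ran from 0.0365 to 0.312 and passed in 1 of them, the one with 2 reads added. For +502 it ran from 0.0365 to 0.312 and passed in the same one, except with diffSpliceDGE, where the change was 0.28 (unadjusted p = 0.318) and the adjusted p was close to 1. The shift test of CSTF3 divided the reads at the pooled median position, +502, which lies within the full-length site and does not part the 2 forms. Its log2 odds changed by 0.60 ± 0.28 and did not pass (limma, adjusted p = 0.533), without overlap (4.34% of genes). Without R749H replicate 3 the change was 0.41 (limma, adjusted p = 0.666). Division at the midpoint, an alternative that parts the 2 forms, gave 2.03 and passed (limma, adjusted p = 0.0332). The depth behind these shares was 5 to 41 reads per library at the short site. In the whole data only 3 of 7804 sites passed (0.0384%), and 830 had an unadjusted p under 0.05.

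CSTF2, the RNA-binding subunit of CstF, had 9.92, 13.8, 10.1, 12.4 and 14.0 normalised RPM in wild-type replicates 1 to 5, and 18.3, 23.8, 34.1 and 26.5 in R749H replicates 1 to 4. Every R749H value lay above every wild-type value, and 19.9% of all genes tested likewise had no overlap, in either direction. The change was 1.07 ± 0.23 (adjusted p = 0.00365), or 0.94 without R749H replicate 3, which held the highest value (adjusted p = 0.00958). CSTF2 had a single site, at +2555 to +2571, with 95.7% of its reads, and no shift of its 3’ ends passed the test: 43.4 ± 10.3% of wild-type and 48.8 ± 7.72% of R749H reads lay downstream of +2561, with overlapping libraries (log2 odds 0.33 ± 0.39, 95% interval -0.54 to 1.19, adjusted p = 0.788).

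CSTF2T is an intronless copy of CSTF2 whose protein can take the same place in CstF. It had 11.2, 15.0, 12.2, 10.9 and 16.4 normalised RPM in wild-type cells and 12.7, 12.1, 15.7 and 13.8 in R749H cells, 2 ranges that overlapped throughout. The change was 0.06 ± 0.22 with a 95% interval from -0.41 to 0.52 (adjusted p = 0.881). The share of CSTF2T in the reads of both paralogs needs no scaling between libraries. It was 53.0, 52.2, 54.7, 46.9 and 54.0% in the wild-type libraries (52.2 ± 3.12%) and 41.0, 33.6, 31.6 and 34.3% in the R749H libraries (35.1 ± 4.10%). The highest R749H share lay below the lowest wild-type share. The difference of -17.1 percentage points had p = 0.0159 in the two-sided exact permutation test over 126 splits, which is the smallest p this design allows; no other share was tested, so adjustment leaves it as it is. It was -15.9 points without R749H replicate 3. This share draws on the same reads as the tests of CSTF2 and CSTF2T and is no separate evidence.

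**Figure D2:**
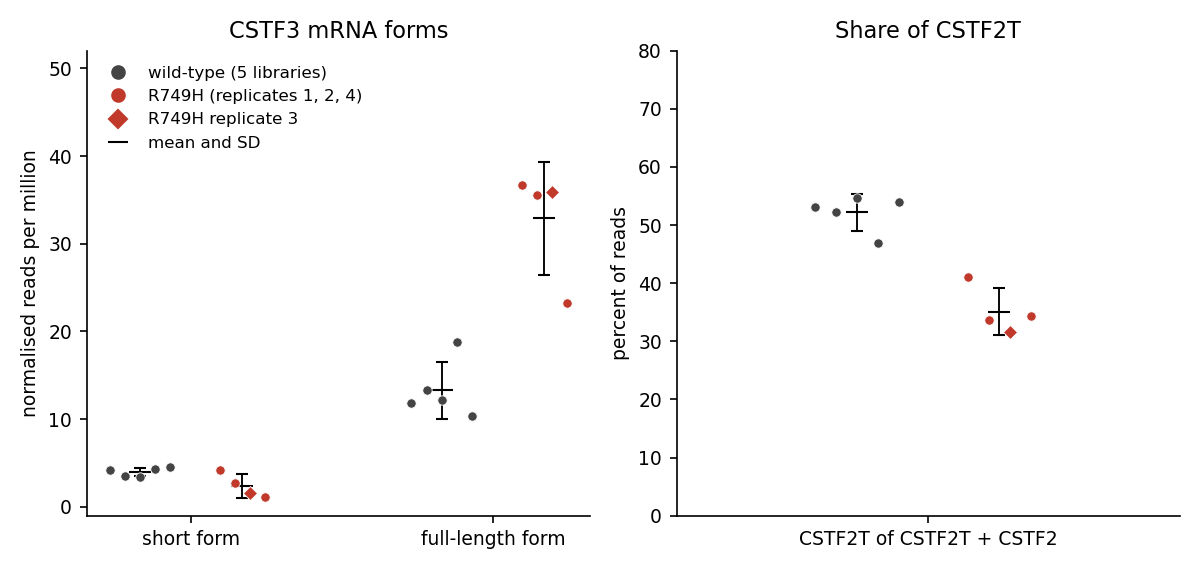
Left, normalised RPM (y axis) of the short and full-length forms of CSTF3; right, CSTF2T reads as a percent of CSTF2 and CSTF2T reads together; points are wild-type (grey) and R749H (red) libraries with mean ± SD. Full-length CSTF3 is higher in all 4 R749H libraries, the short forms overlap, and the share of CSTF2T is 52.2% in wild-type and 35.1% in R749H cells on average.

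At its own 3’ end CSTF2T used a site at +436 to +444 for 75.2 ± 5.67% of wild-type and 71.2 ± 10.2% of R749H reads, and a site at +2212 for 16.3 ± 5.05% and 15.2 ± 6.78%. Both overlapped between the lines, with log2 odds of -0.26 ± 0.47 and -0.15 ± 0.49 (adjusted p = 0.856 and 0.930).

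CSTF1, the remaining CstF subunit, had 19.5, 8.98, 12.6, 12.3 and 11.9 normalised RPM in wild-type cells and 12.5, 20.8, 8.79 and 23.3 in R749H cells. The R749H libraries spread over a wider range than the wild-type ones and enclosed all of them. The change of 0.27 ± 0.30 did not pass (95% interval -0.37 to 0.90, adjusted p = 0.551). It was 0.55 without R749H replicate 3, which held the lowest value (adjusted p = 0.168), and 0.078 without R749H replicate 4, which held the highest (adjusted p = 0.886). Its sites at +321 to +331 (64.0 ± 9.71% in wild-type, 66.5 ± 8.51% in R749H) and at +2634 to +2636 (26.0 ± 9.80% and 29.8 ± 10.5%) overlapped as well (adjusted p = 0.920 and 0.847).

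NUDT21, the UGUA-binding subunit of CFI, had the smallest p of the members. It held 15.7, 13.4, 21.5, 16.0 and 17.0 normalised RPM in wild-type replicates 1 to 5, and 33.0, 37.2, 34.3 and 53.2 in R749H replicates 1 to 4. The lowest R749H library lay well above the highest wild-type library, where 19.9% of all genes tested had no overlap in either direction. The change was 1.23 ± 0.21 (adjusted p = 0.000878), and 1.31 without R749H replicate 3 (adjusted p = 0.00105). Together with CSTF2 and CSTF3 it passed in the same direction under all 20 alternatives tried for each, also with the authors' scaling alone, where the changes were 0.91 (NUDT21), 0.75 (CSTF2) and 0.71 (CSTF3).

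NUDT21 reads lay closer to the stop codon in R749H libraries, a difference that did not pass the test over all genes. At the proximal site (+86 to +88) the level was 8.32, 8.14, 12.7, 9.11 and 9.97 normalised RPM in wild-type libraries, and 22.3, 28.5, 22.9 and 42.2 in R749H libraries, without overlap. At the distal site (+3575 to +3577), close to the annotated end of the mRNA at +3579, it was 4.48, 2.09, 6.03, 3.46 and 4.02 in wild-type and 3.83, 1.92, 0 and 1.61 in R749H libraries, which overlapped. Hence the proximal share was 57.7 ± 2.99% in wild-type and 72.4 ± 6.36% in R749H cells, with every R749H library (66.7 to 79.2%) above every wild-type library (53.1 to 60.9%), a lack of overlap seen at 4.84% of sites. The distal share was 28.6, 15.6, 28.0, 21.6 and 23.7% in wild-type libraries, and 11.6, 5.15, 0 and 3.03% in R749H libraries, again without overlap, as at 6.48% of the sites that were major in either cell line. In R749H replicate 3 the distal site had 0 of 129 reads, which allows a share of up to 2.33% by counting error alone. This limit takes no account of the few single-read isoforms of that library, whose part in the 0 was not tested.

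The log2 odds of the proximal site changed by 0.96 ± 0.34 (adjusted p = 0.335). Reads downstream of the gene's pooled median position, +87, made up 41.5 ± 2.98% in wild-type and 26.3 ± 6.22% in R749H cells, without overlap (4.34% of genes), a change of -1.01 ± 0.28 in log2 odds (unadjusted p = 0.0045, adjusted p = 0.265), in a test that 2 of 7757 genes passed (0.0258%; 736 had an unadjusted p under 0.05). The distal site fell under the 5% limit for a major isoform in R749H cells, so it entered only the alternative that takes isoforms above the limit in either cell line, which was chosen after the data had been seen. There its log2 odds changed by -3.40 ± 0.88 (adjusted p = 0.146), and by -2.27 ± 0.49 without R749H replicate 3 (adjusted p = 0.0862); 0.0359% of 11143 sites passed. A minor site at +1033 held 0 to 9.38% of the reads of a wild-type library and 0.433 to 6.32% of an R749H library.

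The partners of NUDT21 in CFI could not be measured. CPSF6 had 2, 4, 0, 0 and 1 reads in the wild-type libraries and 2, 0, 0 and 0 in the R749H libraries, and CPSF7 had 0, 2, 1, 0 and 1, and 2, 0, 0 and 1. Both failed the filter on low counts, and a library with 0 reads allows up to 3 reads by counting error alone, which is 0.273 to 0.960 normalised RPM depending on the library. The limit takes no account of the few single-read isoforms of R749H replicate 3. In the GENCODE annotation the coding transcript of CPSF6 used here ends 11799 nt past its stop codon and that of CPSF7 8302 nt past it, both beyond the 5 kb that the tables cover. Their levels at those ends were not analysed here, nor was the share of CPSF7 among both partners.

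PCF11, the CFII subunit that binds Rpb1, was the only member tested whose change was negative. It had 14.4, 10.2, 9.13, 9.20 and 9.97 normalised RPM in wild-type replicates 1 to 5, and 4.87, 5.20, 15.7 and 3.23 in R749H replicates 1 to 4. R749H replicates 1, 2 and 4 lay below every wild-type library, and replicate 3 above all of them. The change was -0.79 ± 0.36 and did not pass (unadjusted p = 0.0453, adjusted p = 0.125). Without R749H replicate 3 it was -1.22 (adjusted p = 0.00555), and with the authors' scaling alone -1.10 (adjusted p = 0.0455); in the other 18 alternatives it was negative and did not pass. Without R749H replicate 4, which held the lowest value, the change was -0.48 (adjusted p = 0.371). Whether PCF11 passed thus depended on R749H replicate 3, the library with few single-read isoforms, and on the scaling.

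Most PCF11 reads ended at +307 to +311 (24.8%) or at +897 (69.9%), and none lay past +901 although the annotated mRNA runs to +2557. The distal site at +897 took 86.7, 77.6, 71.4, 70.3 and 61.4% in wild-type libraries and 71.4, 57.9, 67.8 and 35.7% in R749H libraries. The proximal site took 13.3 to 31.6% and 21.4 to 64.3%. Both overlapped, with log2 odds of -1.02 ± 0.61 for the distal and 0.99 ± 0.63 for the proximal site (adjusted p = 0.557 and 0.579), and the highest proximal share, in R749H replicate 4, rested on 9 of 14 reads.

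CLP1 was the least abundant of the 8 genes, with 10 to 23 reads in a wild-type library and 12 to 15 in an R749H library. Its level was 3.20, 3.97, 1.63, 2.09 and 2.80 normalised RPM in wild-type and 2.43, 3.56, 3.99 and 2.77 in R749H libraries, which overlapped (change 0.25 ± 0.40, 95% interval -0.59 to 1.09, adjusted p = 0.680). Its main site, at +423 to +428, held 86.4% of its reads. An end at +390 held 8.70 to 40% in wild-type and 0 to 8.33% in R749H libraries, on 15 reads in all, and CLP1 was below the 20 reads per library required for a test of end use.

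XRN2, the exonuclease of termination, had 6.40, 7.10, 4.40, 3.82 and 4.72 normalised RPM in wild-type and 6.78, 5.48, 5.06 and 7.84 in R749H libraries. The ranges overlapped. The change was 0.26 ± 0.30 (95% interval -0.36 to 0.89, adjusted p = 0.551). Its single site, at +480 to +487, held 93.9% of its reads, and 2.87 ± 2.73% of wild-type and 1.92 ± 3.85% of R749H reads lay past +487 (adjusted p = 0.863). For CSTF1, CSTF2T, CLP1 and XRN2 the sign of the change turned negative with the authors' scaling alone (-0.049 to -0.26), so no direction is given for them.

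**Figure D3:**
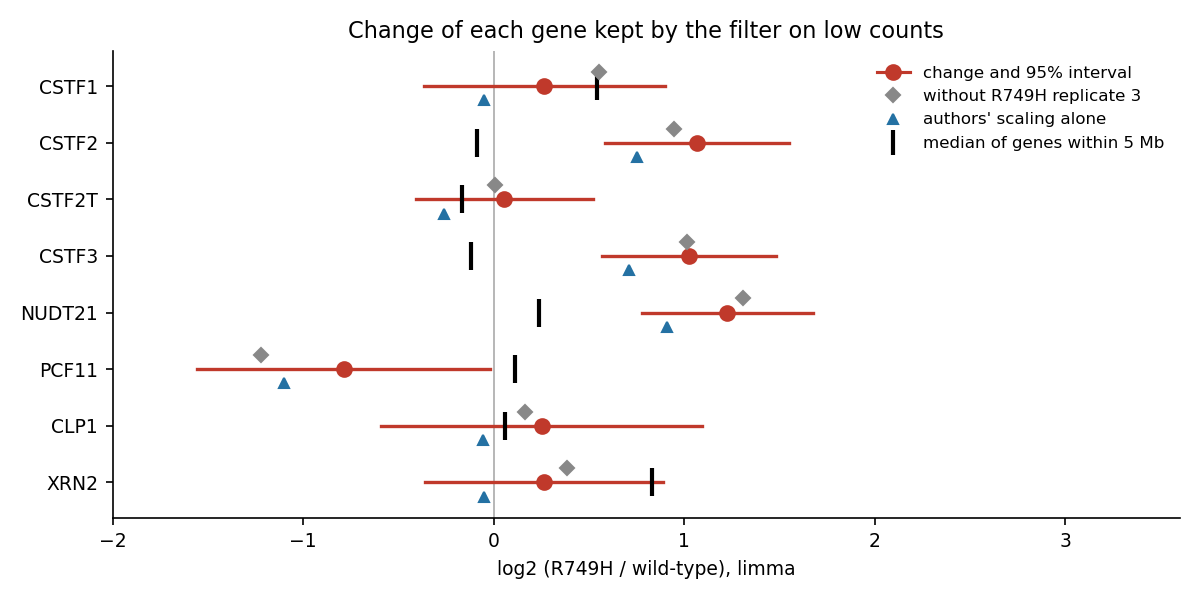
Change of the 8 genes tested (x axis, log2 R749H / wild-type from limma; y axis, genes) with 95% intervals in red, the value without R749H replicate 3 (grey diamonds), the value with the authors' scaling alone (blue triangles), and the median change of genes within 5 Mb (black bars). The intervals of CSTF2, CSTF3 and NUDT21 lie above 0, that of PCF11 reaches from -1.56 to -0.02, and the other 4 span 0.

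At nucleotide distance the members gave little to test. No member had a cluster of at least 4 major isoforms spaced no more than 4 nt apart, the study's unit for such shifts. With at least 3 isoforms, an alternative chosen after the data had been seen, a cluster in CSTF3 and a cluster in NUDT21 had enough reads for the test, while those in PCF11 (+307 to +311) and CLP1 (+423 to +428) were below the 20 reads per library required. In CSTF3, 33.6 ± 3.25% of the wild-type and 37.5 ± 5.59% of the R749H reads of the cluster lay downstream of +502 (log2 odds 0.24 ± 0.26). In NUDT21, 4.35 ± 2.11% and 6.73 ± 2.27% lay downstream of +87 (log2 odds 0.49 ± 0.37). Libraries overlapped in both, whereas 2.35% of such clusters had none (adjusted p = 0.877 and 0.875), and 0 of 1961 such clusters passed in limma, with 100 at an unadjusted p under 0.05.

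The members lie on 6 chromosomes, and their neighbours differed. Genes on chromosome 20, which carries CSTF1 and XRN2, had a median change of 0.54 (259 genes), and those within 5 Mb of XRN2 had a median of 0.83, with 14 of 28 passing as higher. The changes of XRN2 (0.26) and CSTF1 (0.27, against 0.54 within 5 Mb) lay below those of their neighbours. For the 3 genes that rose, the medians within 5 Mb were -0.09 (CSTF2), -0.12 (CSTF3) and 0.24 (NUDT21), against -0.07 for all genes. The changes of these 3 genes exceeded the medians of their neighbours by 1.15, 1.14 and 0.99. Genes within 5 Mb of CPSF6 had a median of -0.62 (26 genes, 11 passing as lower). The part of such neighbourhoods in the members' values was not tested.

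Other genes of 3’ end formation were followed as lists. Of 11 genes of the CPSF core and poly(A) polymerases, 1 rose and 2 fell, with a median change of -0.04. CPSF1, the large scaffold subunit of CPSF, rose from 410.3 ± 69.0 to 590.3 ± 47.7 normalised RPM (0.54 ± 0.17, adjusted p = 0.0263). CPSF3, the endonuclease that makes the cut, fell from 137.2 ± 32.9 to 85.8 ± 28.9 (-0.73 ± 0.24, adjusted p = 0.0393). PABPN1, the nuclear poly(A)-binding protein, whose 3’ end is shared with a readthrough gene, fell from 52.8 ± 5.59 to 32.8 ± 11.3 (-0.76 ± 0.24, adjusted p = 0.0314).

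Of 18 partners of termination, 16 were tested and only PPP1R10, a targeting subunit of the phosphatase PP1, passed; it fell from 7.16 ± 0.709 to 2.80 ± 0.943 (-1.38 ± 0.32, adjusted p = 0.00543). Of the 5 genes listed for histone 3’ ends, 3 were tested and LSM10, of the U7 snRNP, fell (-0.60 ± 0.17, adjusted p = 0.0177). Of the 3 U1 snRNP proteins, whose particle holds premature poly(A) sites in check, SNRPA fell from 170.6 ± 18.2 to 83.8 ± 11.3 (-1.03 ± 0.16, adjusted p = 0.000454). Against the 23.9% of all genes that passed, these shares were 27.3, 6.25, 33.3 and 33.3% of the genes tested in each list.

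By the correlation of log2 levels over the 9 libraries, the genes most like NUDT21 were NOP9 (Pearson's r = 0.9746), ARPC5L (r = 0.973) and POLR2A (r = 0.965). The 9 points share the difference between the lines, which was 0.70 for NOP9, 0.82 for ARPC5L and 2.12 for POLR2A, so these values are a description.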

How the data were processed

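Poly(A) RNA of the 9 libraries was sequenced by 3’ READS. Random nucleotides and leading Ts were cut from each read, which was mapped to hg19 and kept where As absent from the genome followed its end. For the mapping, the submitters' processing notes name Bowtie2 2.3.2. The methods of the study name bowtie for these libraries and Bowtie2 for the NETseq samples. Each 3’ end went to a CCDS stop codon at most 5 kb before it. The authors deposited a scaled signal, reads per isoform on a scale of 7 M poly(A) reads for a replicate and 25 M for a pooled cell line. Division by the smallest step of a library gave whole reads (100%, within 0.1 of a read) in all 9 libraries, and their sums matched the pooled values at every isoform. Because the deposited values are scaled, limma 3.58.1 (R 4.3.3) was the main test, and on the recovered reads edgeR 4.0.16 called 2358 genes and DESeq2 1.42.0 called 2653. No column of another series was found.

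Expression was tested as log2 reads per gene with TMM factors, filterByExpr and 0.5 reads added. End use was tested as log2 odds (20 or more reads per library on average), with major isoforms above 5% of the gene's maximum in both lines. The threshold was an adjusted p of 0.05. Intervals are at 95%. All 10 members are named; of each list, every gene that passed is named. The members, although chosen by name, and the lists and tests were chosen with earlier results of these data known. Sequences were read from GRCh37 (hg19) with GENCODE lifted to that build, and every member stop codon was checked against the genome. The fits were tested on simulated data. The 4 NETseq samples are not analysed here. Labels give a doxycycline time of 24 hr, which is used here, and the methods of the study state a shorter one. One marker gene of the cell line is not reported here and is left out of the marker sum.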

Additional observations from a re-analysis of the deposited data

Results flagged for a closer look

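In 4 of 38 groups of libraries examined (member levels and site shares within a cell line), the highest library lay farther from the rest than Dixon's 95% limit allows, and chance alone flags about 1 in 20 groups. CSTF3 in wild-type replicate 4 had 23.1 normalised RPM, with the nearest library at 16.9; this is the deepest library. PCF11 in wild-type replicate 1 had 14.4, with the nearest at 10.2; this is the shallowest library. PCF11 in R749H replicate 3 had 15.7, with the nearest at 5.20. The distal site of CSTF1 took 45.5% of the reads of the gene in R749H replicate 3, with the nearest library at 25%. The last 2 values come from the library in which 6.60% of isoforms held a single read. Its part in them was not tested.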

How the results depend on the processing

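NUDT21, CSTF2 and CSTF3 kept their direction and passed in every alternative tried for expression. Over all genes the number that passed in the expression test was 1522 to 2942 against 2265, and no test within clusters passed under any alternative. For the shift of genes, 2 genes passed; with 0.1 reads added it was 5, with 2 reads added 13, with thinned libraries 4, with division at the midpoint 13, and 1 to 9 when a library was left out (9 without R749H replicate 1). With that midpoint CSTF3 passed (2.03, adjusted p = 0.0332, against 0.60 and 0.533 with division at the median), NUDT21 did not (-2.12, adjusted p = 0.0938), and PCF11 turned from 0.87 to -1.05 (adjusted p = 0.774 and 0.561). For sites, 3 passed; diffSpliceDGE gave 14, 2 reads added 20, and leaving out a library 3 to 11 (11 without R749H replicate 1). The cause of these differences was not tested. The difference in the share of CSTF2T was -15.9 to -19.4 percentage points over its alternatives; because the groups do not overlap, leaving out a library always gives the smallest p of the smaller design and is no test of stability.

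Members that did not pass changed sign with some settings. With the authors' scaling alone CSTF1 was -0.050, CSTF2T -0.26, CLP1 -0.056 and XRN2 -0.049, and CSTF2T was -0.074 with major isoforms only. CSTF1 shift was 0.18 at the midpoint. CSTF2T +442 was 0.015 with isoforms joined at 4 nt, CSTF2T +2212 was 0.31 with isoforms major in either line, and NUDT21 +1033 was -0.15 with 2 reads added. Leaving out a library gave -0.011 to 0.14 for CSTF2T expression, -0.33 to 0.069 for CSTF1 shift, -0.12 to 0.42 for CSTF2T shift, -0.017 to 0.40 for CSTF1 +321, -0.041 to 0.53 for CSTF1 +2634, -0.42 to 0.084 for CSTF2T +2212 and -0.36 to 1.001 for NUDT21 +1033.

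Libraries of both lines share replicate numbers. The deviations of same-numbered libraries from the mean of their line had correlations of -0.02, 0.16, -0.01 and -0.17 over 2000 genes. Pairs with different numbers ran from -0.335 to 0.187. Whether same-numbered libraries were handled together was not tested. A fit with the replicate number as a block gave 2095 genes for expression, 1 for shift, 2 for sites and 0 for clusters; CSTF1 shift was 0.069 and CSTF1 +321 was -0.017. Depth limits CLP1, XRN2 and PCF11, with 10 to 101 reads per library.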
